A study of Caenorhabditis elegans with 4 samples.

Results

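Chromosome III of Caenorhabditis elegans carried 284 of the 1888 regions of RNA polymerase II (Pol II) occupancy in the combined peak list of larvae at the second larval stage (L2). They were chosen by chromosome name alone, and the 1604 regions of the other 5 nuclear chromosomes are the comparison. Chromatin came from wild-type hermaphrodites of strain N2 (DR subclone, Tc1 pattern I), grown in liquid culture at 20 °C with Escherichia coli HB101 as food. The labels give 2 libraries of DNA immunoprecipitated with the mouse monoclonal antibody 8WG16 (ChIP), and 2 libraries of input DNA, the chromatin before precipitation. The protocol text of all 4 libraries names embryos and a serum against GFP instead, so the antibody is taken here from the sample descriptions and the stage from the stage label. Both replicates were joined by the authors into a single list that gives each region its bounds and a q value. No value belongs to a library, there is no spread between replicates, and no comparison between chromosomes below carries a test.

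Pol II transcribes all protein-coding genes. Its largest subunit, AMA-1 in C. elegans, ends in a tail of repeated heptapeptides that is phosphorylated as the enzyme leaves the promoter and elongates. The antibody 8WG16 recognises this tail and binds its less phosphorylated form best, so it is used to mark polymerase at and near promoters as well as along active genes. Each autosome of this nematode has a gene-dense central part with little recombination, flanked by arms that hold fewer genes and more repeats. Many genes stand in operons, closely spaced genes read from a shared promoter. Animals were taken whole, so high occupancy in few cells and low occupancy in many cannot be told apart.

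Pol II regions were of intermediate density on chromosome III. In the span of 13.8 Mb from the first to the last region, III_17508 to III_13763095 (each region is named by its chromosome and start), there were 20.7 regions per Mb, and the other chromosomes together had 18.7. Per chromosome the order was I with 42.7, IV with 22.7, III with 20.7, II with 14.7, X with 9.19 and V with 8.94. The regions covered 583.6 kb, or 4.24% of the span, against 3.46% on the other chromosomes. III therefore held 15.04% of the regions and 16.5% of the covered length in 13.8% of the summed spans. Its share changed little with the strictness of the list. III had 14 of the 100 regions of lowest p (14%), 64 of the first 472 (13.6%) and 140 of the first 944 (14.8%).

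The regions differed widely in width. The median on III was 1093.5 bp and the quartiles were 427 and 2737 bp, compared with a median of 1043 bp and quartiles of 477 and 2582 bp elsewhere. The ratio of the medians was 1.05. This near equality rests on the narrow regions of chromosome I: without I the ratio became 0.724, and III had the second lowest median of the 6 chromosomes. Regions under 500 bp made up 85 of 284 (29.9%) on III and 26.2% elsewhere, or 18.4% elsewhere without I. Under 100 bp the shares were 3.87% on III and 4.49% elsewhere. Regions of 5 kb or more made up 30 of 284 (10.6%) on III and 126 of 1604 (7.86%) elsewhere. That difference too rests on I: without it the share elsewhere was 10.6%, with 17.6% on X, 12.9% on V, 11.7% on II and 6.09% on IV. These 30 held 40.5% of the covered length of III, against 30.5% on the other chromosomes (33.9% without I) and 41.5% on X, the only chromosome with a higher share. V was close with 39.6%, followed by II with 36.0%, IV with 24.2% and I with 21.2%. Among the 21 regions of 10 kb or more in the list, 6 (28.6%) lay on III, which held 15.04% of all regions. Within each chromosome they made up 2.69% of regions on V, 2.11% on III, 1.89% on X, 0.897% on II, 0.508% on IV and 0.467% on I.

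**Figure D1:**
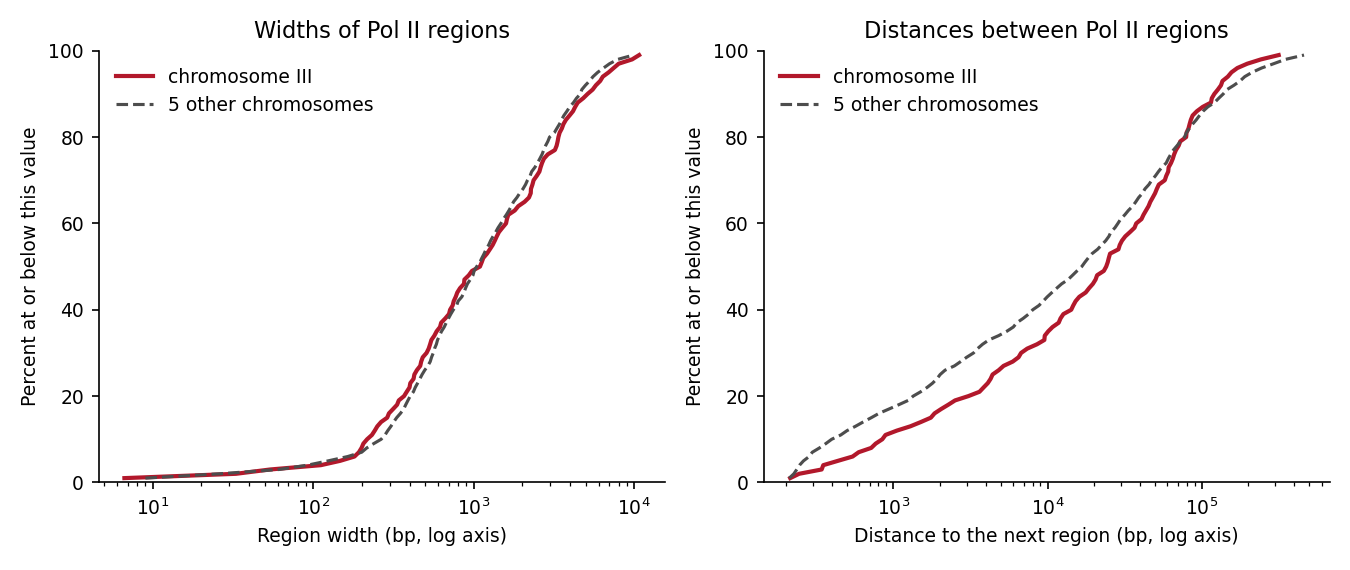
Cumulative distributions, in percent of regions, of region width (left, bp, log axis) and of the gap between neighbouring regions (right, bp, log axis). The solid line is chromosome III (284 regions) and the dashed line the 5 other chromosomes (1604 regions). The width curves cross near the medians of 1093.5 and 1043 bp, while the gap curve of III lies to the right up to the median of 24020 bp, against 16672 bp elsewhere.

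Numbers of sequenced tags stood behind the q values and could be worked back from them for 282 of the 284 regions, as whole pairs of a larger and a smaller count. The larger is read here as ChIP tags and the smaller as input tags after scaling to the ChIP library, which is an inference that no source used here states. Enrichment below is the ratio of ChIP to scaled input tags. Its 95% interval is exact (Clopper-Pearson) and covers counting error only, because without molecular identifiers PCR copies cannot be told from independent fragments. Library totals are unknown.

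The broadest stretch of Pol II in the list was III_7718209, in the centre of the chromosome, which ran for 20688 bp from 7718209 to 7738896 (WormBase WS210). It also had the most ChIP tags of any region with recovered counts, 6834 against 3958 of scaled input, an enrichment of 1.73-fold (95% interval 1.63 to 1.83). The second widest of the list was III_343324, from 343324 to 358074 on the left arm, 14751 bp wide, with 6147 ChIP tags against 3259 and 1.89-fold enrichment (1.77 to 2.01). Next on III came III_1615903, from 1615903 to 1627083, 11181 bp wide, which reached 2.73-fold (2.47 to 3.02) and was the most enriched of the 30 broad regions. Its interval lay wholly above those of both wider regions.

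Broad regions were not of a kind in strength. Their enrichment ran between 1.13-fold and 2.73-fold with a median of 1.75-fold, and together they held 40.2% of the ChIP tags of III. III_10810383, from 10810383 to 10821021, was 10639 bp wide and 1.45-fold enriched (1.33 to 1.58). Of nearly the same width, III_4491054, from 4491054 to 4501623, was 1.75-fold enriched (1.60 to 1.90). III_7369482 (7369482 to 7379032, 9551 bp) was 2.01-fold enriched (1.85 to 2.18) and III_7329067 (7329067 to 7339069, 10003 bp) 1.61-fold (1.48 to 1.76). Lower values were seen in III_3868920 (3868920 to 3877001, 8082 bp) with 1.23-fold (1.12 to 1.36), in III_13615662 (13615662 to 13623657, 7996 bp) with 1.27-fold (1.15 to 1.40), and in III_12610448 (12610448 to 12617898, 7451 bp) with 1.36-fold (1.25 to 1.48). III_3794545 (3794545 to 3802552, 8008 bp) and III_7972606 (7972606 to 7980399, 7794 bp) stood higher, at 1.75-fold (1.59 to 1.93) and 1.77-fold (1.62 to 1.95).

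**Figure D2:**
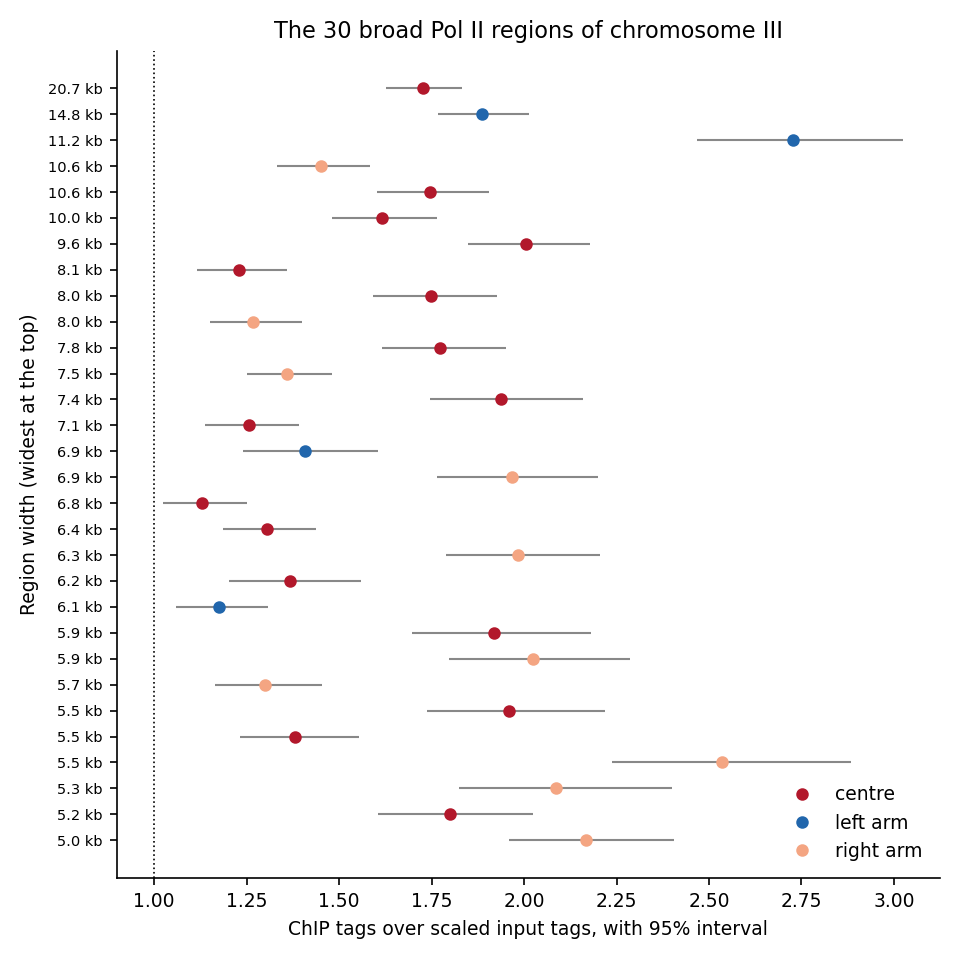
Enrichment of the 30 regions of 5 kb or more on chromosome III, widest at the top. Points are the ratio of ChIP to scaled input tags, horizontal lines the 95% interval from counting error, and colours the part of the chromosome. Width did not order the ratios, which spread between 1.13 and 2.73.

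Some broad regions were neighbours divided by a short break. III_4491054 was followed after 249 bp by III_4501873, which ran on to 4508662 at only 1.13-fold (1.02 to 1.25), the lowest enrichment on III. Joined, they spanned 17609 bp, the third widest stretch of the list after joining of regions closer than 500 bp. III_12603247 and III_12610448, 345 bp apart, likewise made 14652 bp. Across some such breaks enrichment differed: it was 1.97-fold (1.76 to 2.20) in III_12603247 and 1.36-fold in III_12610448, with intervals that did not overlap. Across others the intervals overlapped. III_5945803 with 1.54-fold (1.34 to 1.78) and III_5949627 with 1.73-fold (1.52 to 1.97) lay 206 bp apart. After the joining, 7 of 268 stretches on III and 23 of 1412 elsewhere reached 10 kb.

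Enrichment on III was lower than on the other chromosomes together, but its median was close to those of II, IV and V. Its median was 1.77-fold, with quartiles of 1.51 and 2.21 (282 regions), against 1.92-fold with quartiles of 1.60 and 2.50 elsewhere (1596 regions). It was the second lowest of the 6 chromosomes, with 2.10 on I, 1.86 on IV, 1.84 on II, 1.81 on V and 1.57 on X. Enrichment of at least 2-fold was reached by 104 regions on III (36.9%), against 45.2% elsewhere, and 68 (24.1%) stayed under 1.5-fold, against 16.9% elsewhere. The share of at least 2-fold was 57.0% on I, 40.9% on IV, 40.5% on II, 35.1% on V and 25.9% on X. Under 1.5-fold it was 6.72% on I and 14.8% on IV, but 24.3% on II, 25.4% on V and 42.4% on X. The counting interval lay wholly above 2 in 18 of the 282. It lay wholly above 1 in all of them, which is largely fixed in advance, since the same counts gave the p values that admitted them. This order depended on the scaling of the input, which the recovered input numbers put at 2.97 on III and between 2.00 on I and 3.16 on II for the others. With the highest of these factors on every chromosome, the median on III was 1.67-fold and that of the other chromosomes 1.48-fold, so the direction was turned. That factor raises the input more on chromosomes with a low factor, and III has one of the highest.

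The region of lowest q on III was III_1615903 (q = 4.72e-230), at place 26 in the list. The list itself begins after 42 ranks that are not analysed here, so stronger regions on III may be missing. Second came III_8864149, from 8864149 to 8868585, with 2822 ChIP tags against 985 of input, 2.86-fold enriched (2.56 to 3.22). The broad III_343324 and III_7718209 followed. III_832472 (832472 to 836479) on the left arm was 2.50-fold enriched (2.24 to 2.79), and III_8651925 (8651925 to 8655102) in the centre 3.07-fold (2.66 to 3.57). The rest of the 12 regions of lowest q were III_7369482, III_4192661, III_10532587, III_13461491, III_10336985 and III_5023360, between 2.01-fold and 3.13-fold. All 12 were at least 2380 bp wide, and 3 lay on the left arm, 6 in the centre and 3 on the right arm.

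The highest enrichment was found in regions of 437 to 3178 bp, most of them on the right arm. Among regions with at least 100 ChIP tags, III_12250150 led with 1006 ChIP tags against 232 of input in 749 bp, from 12250150 to 12250898, or 4.34-fold (3.44 to 5.53). Its 1343 ChIP tags per kb compared with a median of 275 over the 199 regions of III of 500 bp or more, and gave it place 6 in the whole list at that width. It stood alone, 224415 bp from its left and 84276 bp from its right neighbour. III_11089975 (11089975 to 11091322) followed with 3.55-fold (2.88 to 4.43) and 745 ChIP tags per kb, then III_10986305 (10986305 to 10986741) with 3.23-fold (1.92 to 6.27). III_7948789, III_11693283, III_10336985, III_8651925 and III_3317906 completed the leading 8, between 3-fold and 3.18-fold. Of the 8, 5 lay on the right arm, 2 in the centre and 1 on the left arm, while the right arm held 22.2% of all regions of III. In the whole list, III_12250150 held place 24 in enrichment at 100 or more ChIP tags.

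Narrow regions were the most enriched as a class. The 73 regions of 100 to under 500 bp with counts had a median of 2.08-fold, the 55 of 500 to under 1000 bp 1.72-fold, the 63 of 1000 to under 2500 bp 1.66-fold, the 51 of 2500 to under 5000 bp 1.60-fold and the 30 of 5 kb or more 1.75-fold. The other chromosomes gave 2.20, 1.87, 1.70, 1.76 and 1.77 in the same classes, so III was the lower one in each of these 5 classes. With 1 common input factor on every chromosome that direction turned in all 5: the medians were 1.97, 1.63, 1.56, 1.51 and 1.65 on III against 1.65, 1.44, 1.35, 1.41 and 1.51 elsewhere. Across the 282 regions of III width and enrichment had a Spearman rho of -0.471, given as a description since each pair shares its tags and a region with few tags enters the list only at a high ratio. At the extreme, 11 regions of III were under 100 bp wide. Here III was not the lower: the median was 4.35-fold on III (10 regions with counts) and 4.14-fold elsewhere (70 regions). With the common factor both medians were 3-fold, where a ratio could be formed. III_1068762 (1068762 to 1068763) and III_3965317 (3965317 to 3965318) spanned 2 bp and III_2279538 (2279538 to 2279542) 5 bp. III_3965317 had 25 ChIP tags against 3 of scaled input and III_2279538 18 against 1, while the q value of III_1068762 fitted 2 pairs of counts. The 10 with recovered counts held between 18 and 40 ChIP tags, and 7 of the 11 lay on the arms.

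**Figure D3:**
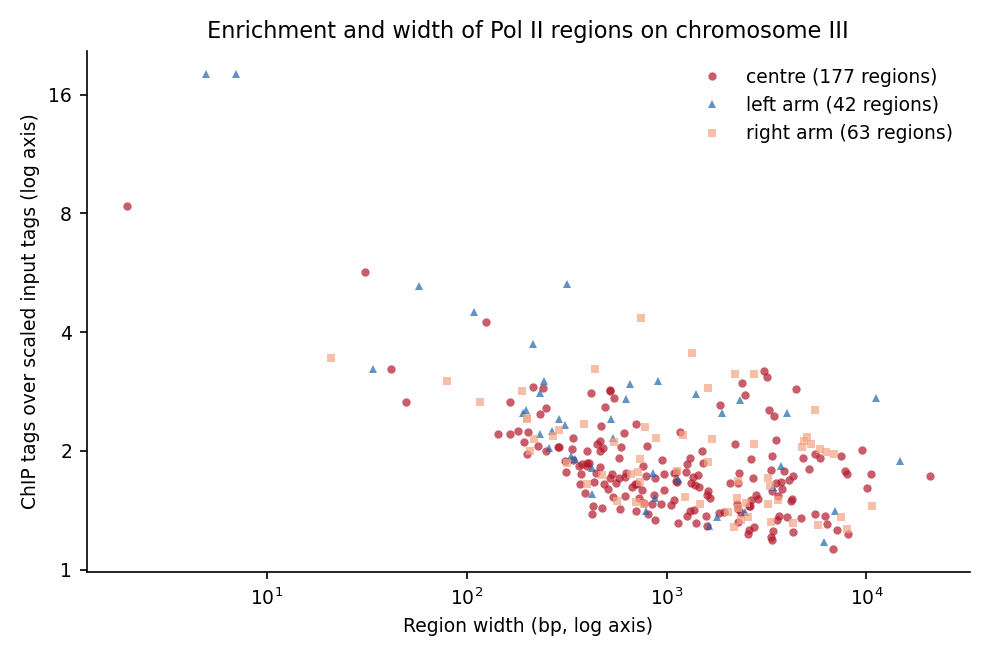
Ratio of ChIP to scaled input tags against width for the 282 regions of chromosome III with recovered counts (both axes log), by part of the chromosome. Regions of over 10000 bp stay under 3-fold, and the ratios above 4.34 belong to narrow regions with few tags.

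Along the chromosome, regions were most crowded in a single 1 Mb bin. The bin from 5 to 6 Mb held 48 regions (16.9% of those on III), against a median of 17.5 over the 14 bins. It was followed by 7 to 8 Mb with 30 and 8 to 9 Mb with 29. Between the first 2 of these, the bin from 6 to 7 Mb had 20. The fewest were in the bin from 2 to 3 Mb, with 9. By covered length the order changed: 7 to 8 Mb led with 76.1 kb, 20688 bp of it from III_7718209, and held place 4 among the 103 occupied bins of the list, while 5 to 6 Mb had 61.5 kb. The bin from 2 to 3 Mb was lowest again, with 15.1 kb. Regions in the fullest bin were narrow, with a median of 721 bp and a single region of 5 kb or more. In contrast, 3 to 4 Mb held 16 regions, of which 4 were that broad.

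**Figure D4:**
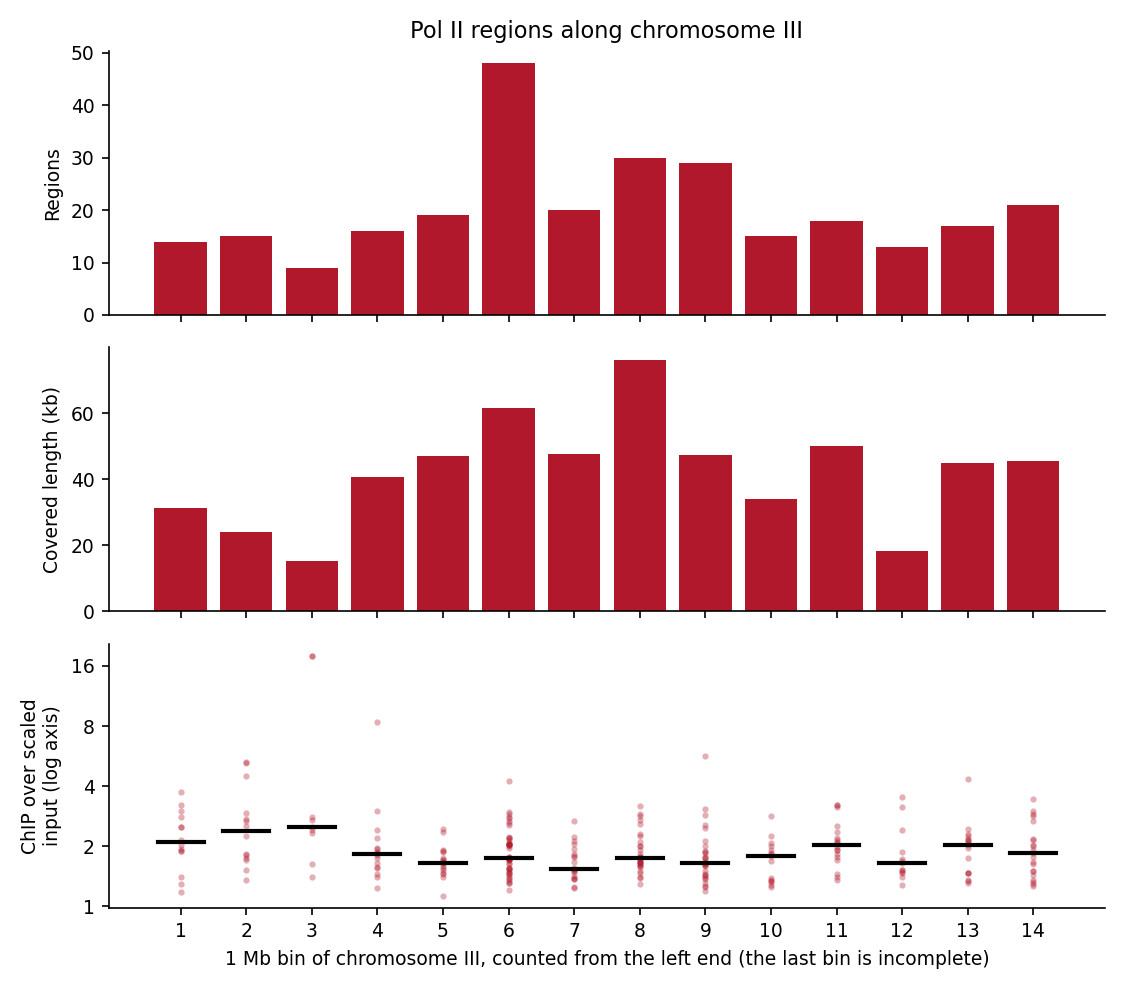
Number of regions (top), length they covered in kb (middle) and ratio of ChIP to scaled input tags (bottom, log axis, points are regions and black lines medians) in the 14 bins of 1 Mb of chromosome III, from the left end. The sixth bin has the most regions, 48, and the eighth the most covered length, 76.1 kb. Median ratios are highest in the first 3 bins, between 2.10 and 2.50.

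Within the fullest bins, III_5550125 (5550125 to 5552592), nearest to the middle of the bin from 5 to 6 Mb, was 2468 bp wide and 2.77-fold enriched (2.31 to 3.34). The regions nearest to the middle of the other 2 bins were weak. III_7465233 (7465233 to 7465938) was 1.41-fold enriched (1.04 to 1.95) and III_8518876 (8518876 to 8519362) 1.65-fold (1.08 to 2.68). In windows of 100 kb, 9 regions each fell from 5.7 to 5.8 Mb and from 7.1 to 7.2 Mb, the most on III, whereas 26 of the 138 windows were empty. The 13 windows with 5 or more regions held 77 regions, or 27.1% of the chromosome's total. By length the fullest window was 7.7 to 7.8 Mb, with 4 regions and 22.0 kb, followed by 7.3 to 7.4 Mb with 3 regions and 21.1 kb.

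The centre of III was denser than its arms. The middle 50% of the span, from 3455334 to 10330988, held 178 of 284 regions (62.7%) and 62.4% of the covered length, or 25.9 regions per Mb against 15.4 on the arms. The ratio of 1.68 between centre and arms compared with 2.38 on V, 1.60 on I, 1.30 on II, 1.01 on X and 1.00 on IV. The arms of III were unlike each other. The left arm had 43 regions, 12.5 per Mb, with a median width of 529 bp, and the right arm 63, or 18.3 per Mb, with a median width of 1604 bp. In covered length the right arm reached 42.6 kb per Mb, nearer to the 53.0 kb of the centre than to the 21.3 kb of the left arm. Broad regions numbered 16 in the centre (8.99% of its regions), 4 on the left arm (9.30%) and 10 on the right arm (15.9%). The share of broad regions was thus not higher in the centre.

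**Figure D5:**
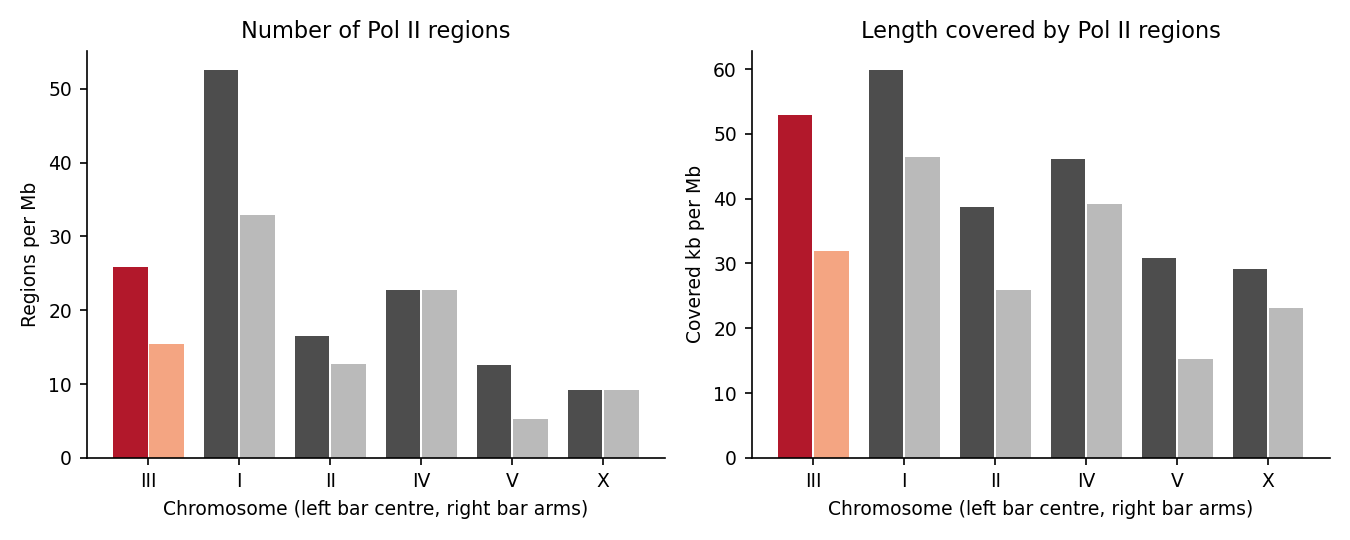
Regions per Mb (left) and covered kb per Mb (right) in the centre (middle 50% of the span, left bar of each pair) and on the arms (right bar) of each chromosome, with III in colour. On III the centre has 25.9 regions and 53.0 covered kb per Mb, against 15.4 and 31.9 on the arms.

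Enrichment ran the other way. Its median was 1.73-fold in the centre (177 regions) and 2.03-fold on the arms (105 regions), made up of 2.37-fold on the left and 1.91-fold on the right arm. At least 2-fold was reached by 27.7% of central regions, 61.9% of those on the left arm and 46.0% on the right arm. Widths differed between the parts too. On the left arm 48.8% of the regions were under 500 bp, against 27.5% in the centre. On the right arm 23.8% were that narrow and the median width was 1604 bp, against 1120.5 bp in the centre. Among regions of 500 bp or more the medians came closer, with 1.65-fold in the centre, 1.86-fold on the left and 1.73-fold on the right arm. Scaled input differed between the parts as well. In regions of that width it had a median of 179 tags per kb in the centre, 111 on the left arm and 166 on the right arm, whereas ChIP tags had medians of 291, 242 and 264 per kb. The part of width and of input in the difference was not tested. The median was lower in the centre on all 6 chromosomes, but hardly so on X, with 1.56 in the centre against 1.57 on the arms, and on II, with 1.84 against 1.85. III had the widest difference of the 6.

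The median distance between neighbouring regions was longer on III than in the rest of the list, but shorter than on II, V and X. The median distance from an end to the next start was 24020 bp on III (283 distances) and 16672 bp elsewhere, where chromosome I with 6409 bp counts for much. IV had 17961 bp, II 26440 bp, V 54141 bp and X 61791 bp. The order from I through IV, III, II and V to X ran opposite to the density of regions except for V and X. At the 90th percentile the distance was shorter on III, with 120858 bp against 138090 bp elsewhere. On III 16 distances (5.65%) were under 500 bp, compared with 12.01% elsewhere, and 74 (26.1%) were at most 5 kb, compared with 34.4%. II and V had similar shares under 500 bp, with 5.86% and 5.95%, while X had 6.96%, IV 13.5% and I 16.2%. At most 5 kb the shares were 46.2% on I, 33.3% on IV, 24.3% on II, 21.6% on V and 18.4% on X. The longest empty stretch ran for 404 kb from III_11251018 to III_11657074, the next for 360 kb from III_9079822 to III_9441025, and the third for 334 kb from III_2476969 to III_2811292, while the longest was 325 kb on I and 1175 kb on V.

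Runs of close neighbours, here at least 3 regions with every distance at most 5 kb, were short. III had 15 runs with 52 regions (18.3%), of which 10 had 3 members, 3 had 4 and 2 had 5. The share in runs was 46.9% on I, 23.6% on IV, 16.1% on V, 13.9% on II and 8.18% on X, and the longest run in the list, on I, had 10 members. On III the right arm had 20 of its 63 regions in 6 runs (31.7%), the centre 25 of 178 in 7 runs (14.0%) and the left arm 7 of 43 in 2 runs (16.3%). Regions in runs had a median width of 740 bp and a median enrichment of 2.00-fold, against 1224.5 bp and 1.75-fold outside them. Among regions of 500 bp or more the medians came closer, with 1.79-fold in runs (34 regions) and 1.65-fold outside (165 regions). With all tags pooled the ratios were 1.80 and 1.73. The part of width in the difference was not tested.

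The longest runs differed in kind. A run on the right arm, from 12595576 to 12624199, packed 3 broad regions and 2 small ones into 28.6 kb and covered 74.1% of it. In order, its members III_12595576, III_12603247, III_12610448, III_12622605 and III_12623423 were 2.02-fold, 1.97-fold, 1.36-fold, 2.19-fold and 2.30-fold enriched. The other run of 5 members lay in the centre, from 5755101 to 5760175, and consisted of regions of 50 to 619 bp at distances of 605 to 1066 bp. They held 613 ChIP tags in all against 333 of scaled input (1.84-fold). A run of 4 on the left arm, from 1408929 to 1420713, ended in III_1418380, a region of 2334 bp with 1353 ChIP tags and 2.69-fold enrichment (2.29 to 3.18). The 3 before it had between 38 and 121 tags. In the centre, a run of 4 from 5550125 to 5557821 began with the strong III_5550125 and went on with 3 regions between 1.34-fold and 2.23-fold. The run of shortest span, from 7140086 to 7142627, was made of regions of like width: III_7140086, III_7141196 and III_7142104 were 492 to 544 bp wide, 416 and 566 bp apart, and 2.58-fold to 2.85-fold enriched.

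Both ends of the chromosome were occupied. The first region, III_17508 (17508 to 17766), was 259 bp wide and 2.03-fold enriched (1.04 to 4.49) from 61 ChIP tags. The last, III_13763095, ran for 5720 bp to 13768814, and was 1.30-fold enriched (1.16 to 1.45) from 1542 ChIP tags. The incomplete final bin, from 13 Mb on, had 21 regions in 0.769 Mb, or 27.3 per Mb, the highest density on III outside the centre, and the first bin had 14.2 per Mb.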

How the data were processed

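The file holds 1 list of 1888 peaks, called with PeakSeq on WormBase WS210, per the file headers and its source column. No source used here gives the aligner, the thresholds, the read numbers or the way replicates were joined. The deposited q-value of each peak was the only measurement, and starts and ends count from 1. The list runs in order of p. From falls of q within ties, all 128 whole-number solutions put 42 ranks before its first row. The number of tests was taken as 15045, which made most p-values (968, next best 3) binomial tails of whole count pairs at even odds. Within a relative tolerance of 1e-09 and sums of up to 30000 tags, 1878 peaks had a single pair, 5 had several and 5 none. Recovery was tested on simulated data made with the same binomial model and searched to a lower sum of tags. That test cannot show that the pairs are ChIP and input tags. On each chromosome 91.1% to 97.3% of the smaller counts were rounded-up multiples of a factor (31.7% to 49.9% of whole numbers are), and that factor is taken as the input scaling. Intervals use the input divided by that factor and rounded down.

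Span is the distance from the first to the last region, the centre is its middle 50%, and each arm is 25%. Bins assign a region by its midpoint. Regions named are the 12 of lowest q, the 12 widest, the 8 of highest enrichment with at least 100 ChIP tags, the 4 runs with most regions, the 3 narrowest, the first, the last and those nearest to the middle of the 3 fullest bins. Members of runs, the run of shortest span, neighbours across short breaks and the ends of empty stretches were named after their values were seen. The members and these rules were chosen with earlier results of these data known. The only gene table at hand is of the WBcel235 assembly, so regions carry no gene names or sequences. Scripts ran in Python 3.11.15 with NumPy 2.4.6, SciPy 1.17.1 and pandas 2.3.3.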

Additional observations from a re-analysis of the deposited data

How the results depend on the processing

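Over 90 alternatives, 56 stayed within a limit, the 95% binomial interval for medians and shares of regions and 1.5 times the value for counts, densities, ratios and shares of length, and 34 moved further. The limit for ratios lets a direction turn. The width ratio of III to the rest, 1.05, was 0.724 without I, 0.936 and 0.893 after joining within 500 bp and 2 kb, and 0.779 among regions kept with a common input factor. In its other alternatives it was between 1.01 and 1.19. The list with 944 peaks of lowest q had 140 regions on III (10.4 per Mb), a median width of 2626 bp, 20.0% of 5 kb or more, a median distance of 51804 bp and 3 runs (6.43% of regions). That with 472 had 64 regions (4.78 per Mb, 22.3 covered kb per Mb), a median width of 3683.5 bp, 31.2% of 5 kb or more, a median distance of 140620 bp and 1 run (4.69%). Both lists are shorter by construction. Joining regions closer than 2 kb gave a median width of 1465 bp and 14.8% of 5 kb or more. Limits of 3 kb and 10 kb for broad regions gave 23.9% and 2.11% of regions and 65.1% and 13.3% of covered length. The middle 33.3% of the span held 47.9% of regions and the part from 4 to 10 Mb 56.7%. With distances of at most 2 kb there were 8 runs (9.51% of regions) and with 10 kb 23 (29.9%). The median enrichment was 1.67 with a common input factor, 1.69 at 100 or more ChIP tags and 1.66 at 500 bp or more, where centre and arms had 1.66 and 1.75. Among regions still at or under the largest p of the list, 0.00128, with the highest factor on every chromosome, an alternative chosen after seeing the data, III held 20.6% of the list and 12.6% of its regions lay in runs. That factor removes the largest shares of regions from chromosomes with a low factor of their own. No paired analysis was possible because no value belongs to a library, which also prevents leaving out a replicate.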

Other observations

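Input tags before scaling were at similar density on all chromosomes. In regions of 500 bp or more their median was 58.2 per kb on III, 58.9 on I, 55.0 on V, 54.2 on X, 51.9 on II and 49.6 on IV, whereas scaled input was highest on III, at 174 per kb, and lowest on I, at 119. On III the median before scaling was 60.3 per kb in the centre, 37.1 on the left arm and 55.9 on the right arm. When the input factor of chromosome II was applied to all, 239 of the 282 regions of III (84.8%) still met the largest p listed, against 57.6% elsewhere. This share is no measure of strength, since it ran in the order of the chromosomes' own factors. It was 100% on II, whose own factor was used, 95.7% on V, 59.5% on X, 52.7% on IV and 34.4% on I. The 43 regions of III that did not meet that p had a median width of 587 bp, and the lowest q among them was 7.61e-05.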
